A study of Homo sapiens with 12 samples.

Results

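Core splicing factor genes are described here in MOLM-13, an established human line from acute myeloid leukaemia with the MLL-AF9 fusion and a FLT3 internal tandem duplication (FLT3-ITD). The genes were chosen by name alone: protein-coding genes whose symbols begin with SRSF, HNRNP, SF3A, SF3B, SNRP, U2AF or PRPF in the forms that denote family members. The rule found 76 of the 60668 genes counted, and 70 of them had enough counts to be tested, among 13972 tested genes in all. The 12 libraries came from 4 groups of 3 separately seeded cultures, kept for 8 days with the solvent DMSO, with the FLT3 kinase inhibitor gilteritinib, with MI-3454, which blocks the binding of menin to MLL1, or with gilteritinib and MI-3454 together. The labels give no doses, and all groups share a single cell line with its fusion and its FLT3 duplication. Each treatment was compared with DMSO, so these comparisons share the 3 DMSO libraries. The p-values measure the spread between cultures of this line.

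Pre-mRNA splicing is carried out by the spliceosome, which is assembled on each intron from small nuclear ribonucleoproteins (snRNPs) and many auxiliary proteins. The SNRP genes encode proteins of these particles, including the Sm proteins that form a ring around the small nuclear RNAs, and the SF3A, SF3B and U2AF proteins recognise the branch point and the 3′ splice site. SR proteins (SRSF genes) mostly promote the use of exons, hnRNP proteins bind pre-mRNA and often oppose it, and the PRPF proteins act in the tri-snRNP and in the catalytic steps. Mutations of SF3B1, SRSF2 and U2AF1 recur in myeloid neoplasms.

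Counts assigned to genes ranged from 6472940 to 12051457 per library. Markers of the myeloid line were present throughout: 9 of the 10 listed genes averaged at least 1 CPM (counts per 1000000 gene counts, scaled for composition). Their summed level was 3830 to 4410 CPM with DMSO, 5750 to 6470 CPM with gilteritinib, 13400 to 14500 CPM with MI-3454 and 18300 to 20300 CPM with the combination. The markers did not move as 1 set. LYZ averaged 415, 683, 7850 and 13500 CPM in these groups. FLT3 went the other way, with 698, 521, 228 and 191 CPM, as did KIT, with 0.581, 0.518, 0.139 and 0.0763 CPM. The part of the difference in summed level in the splicing factor results was not tested. The T cell, B cell, fibroblast and epithelial lists each summed to less than 5 CPM in every library, and 4 of the 5 epithelial and 4 of the 5 erythroid markers were at 0.

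The share of uniquely placed reads that fell outside every annotated feature differed between groups and is given beside the results that it moves with. It was 17.2%, 16.6% and 20.4% in the DMSO libraries, 17.8%, 15.6% and 17.6% with gilteritinib and 20.2%, 25.5% and 17.4% with MI-3454. With the combination it was 28.5%, 32.7% and 36.5%, above every other library. The group mean was 14.5 percentage points higher with the combination than with DMSO (exact permutation test, two-sided, p = 0.1, the lowest value possible with 3 libraries in each group). The differences were 2.98 points with MI-3454 (exact permutation p = 0.3) and -1.05 points with gilteritinib (exact permutation p = 0.6).

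The levels of the splicing factor genes spanned a wide range in this line. In CPM per kilobase of exon with DMSO, HNRNPA1 stood at 243 ± 22.7 (SD, n = 3), SNRPB at 217 ± 6.64 and HNRNPK at 148 ± 11.1. HNRNPA1 and HNRNPK are RNA-binding hnRNP proteins and SNRPB encodes a Sm protein. The lowest of the 70 on the same scale were U2AF1 at 0.583 ± 0.0822, its relative U2AF1L4 at 0.575 ± 0.190 and PRPF40B at 0.441 ± 0.0687. These levels are uncertain. Of all 60-base stretches of U2AF1, 93.3% also occur in another gene, and such reads may not have been counted. U2AF1L4 and PRPF40B share 30.3% and 48.7% of their exon bases with other genes. The 6 genes that were not tested included SRSF12 with 1 count and HNRNPCL1 with 3 counts. The others were HNRNPCL2, HNRNPCL3, HNRNPCL4 and HNRNPUL2-BSCL2, with 0 counts in all 12 libraries. By counting error only, 0 counts allow up to 0.0258 CPM (3 counts over the 12 libraries). This is no bound on the RNA of these genes, since reads shared with other genes may not have been counted. Of the exon bases of HNRNPUL2-BSCL2, 100% lie in other genes. HNRNPCL2, HNRNPCL3 and HNRNPCL4 share 48.8%, 78.6% and 92.7% of their 60-base stretches with other genes.

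With the combination, about as many splicing factor genes were lower than with DMSO as were not, and few were higher. The 76 genes together made up 1.48%, 1.41% and 1.55% of all gene counts with DMSO and 1.29%, 1.32% and 1.31% with the combination, so the groups did not overlap. With gilteritinib the shares were 1.57%, 1.60% and 1.55%, and with MI-3454 they were 1.41%, 1.40% and 1.35%. In edgeR's quasi-likelihood test, 35 of the 70 genes were lower with the combination and 4 were higher at an adjusted p under 0.05. Of all tested genes, 28.4% were lower and 29.2% were higher. The median log2 change of the 70 genes was -0.29, against -0.00 over all tested genes, and 57 of the 70 changes were negative. The 3 combination libraries all lay below the 3 DMSO libraries in 41 of the 70 genes, and this held for 30.8% of all tested genes. In bulk RNA, less RNA of a gene per cell and fewer cells that express it cannot be told apart.

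The heat map of 69 of the 70 genes shows how the lower levels were spread over the classes. In all 3 combination libraries, 11 of 12 SNRP genes, 10 of 12 SF3 and U2AF genes, 16 of 22 hnRNP genes, 8 of 11 SR genes and 6 of 13 PRPF genes were below the DMSO mean. The share of all tested genes below the mean in all 3 was not counted, so these counts only set the classes side by side. The median of all tested genes against the DMSO mean was 0.005, 0.007 and 0.003 in combination libraries 1, 2 and 3. The columns for gilteritinib and MI-3454 were mixed.

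**Figure D1:**
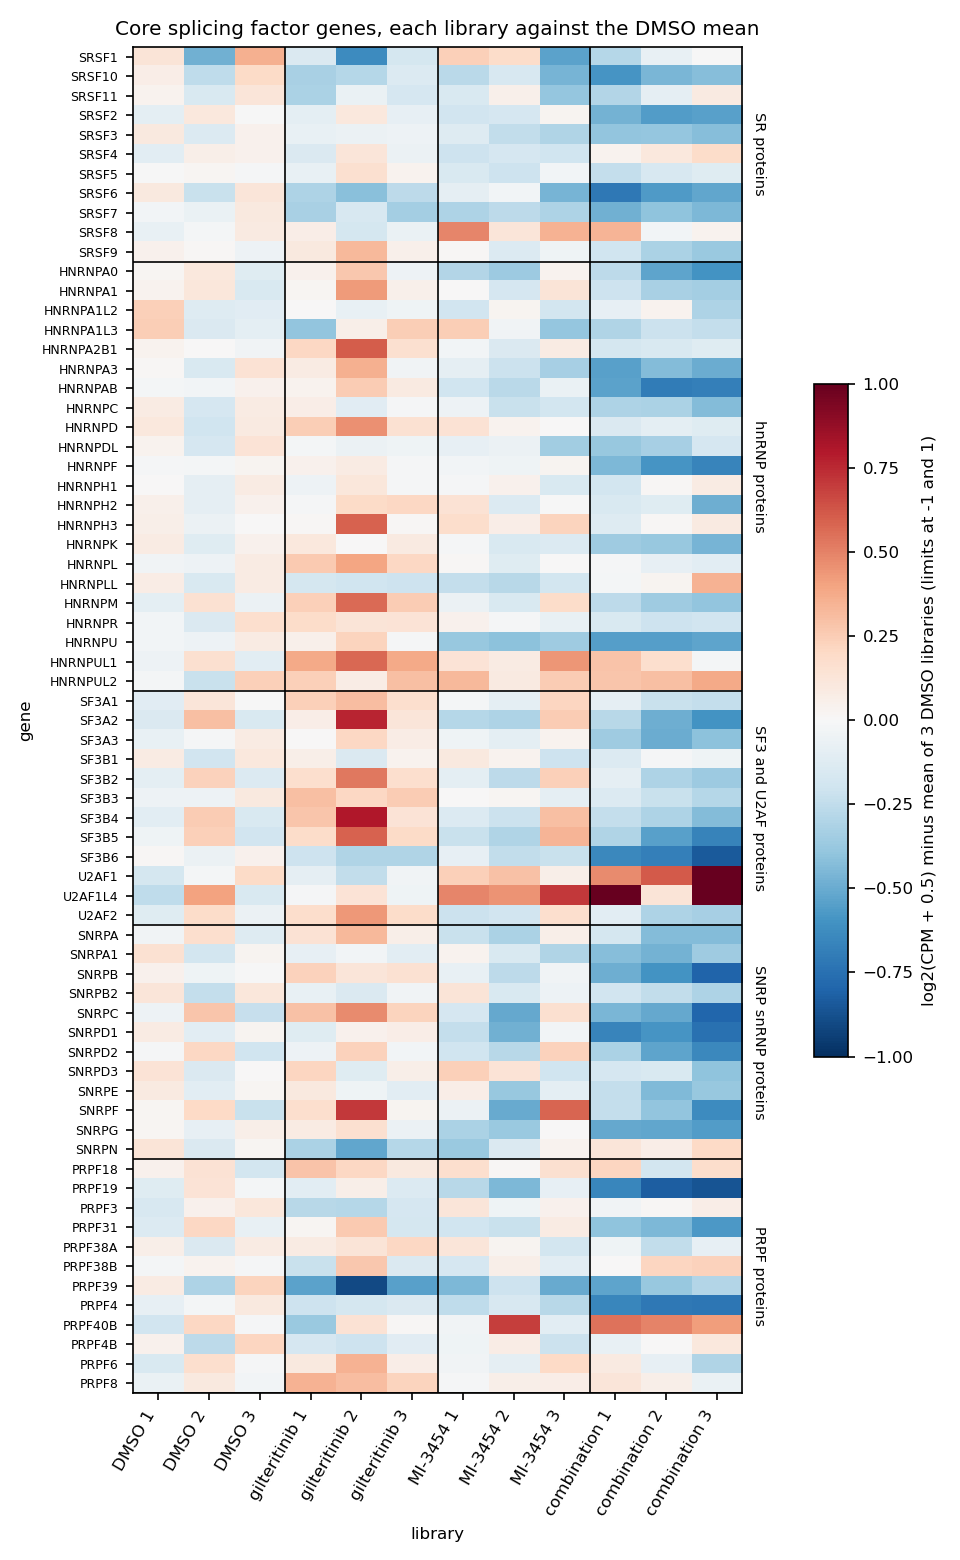
Level of 69 of the 70 tested splicing factor genes (vertical axis, grouped by role) in each of the 12 libraries (horizontal axis), as log2(CPM + 0.5) minus the mean of the 3 DMSO libraries; red is higher, blue is lower, and the colour scale ends at -1 and 1. In combination libraries 1, 2 and 3, 58, 55 and 54 of the 70 genes were below the DMSO mean, where the median of all tested genes was 0.005, 0.007 and 0.003.

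The libraries with the lowest levels of these genes also had the most reads outside features. The median of the 70 genes against the DMSO mean was -0.24, -0.30 and -0.34 in the combination libraries with 28.5%, 32.7% and 36.5% of reads outside features. Among the MI-3454 libraries it was lowest, at -0.15, in the library with 25.5%, and it was -0.03 and -0.06 in the other two. The DMSO libraries ran the other way, with medians of -0.05 at 16.6%, 0.01 at 17.2% and 0.03 at 20.4%, and the gilteritinib libraries had 0.13 at 15.6%, 0.00 at 17.6% and 0.03 at 17.8%. When the share was added as a covariate to a fit of all 12 libraries, 12 of the 70 genes were lower with the combination and 2 were higher, where 16.7% and 15.9% of all tested genes were called. The class medians in that fit were -0.45 for SR, -0.16 for hnRNP, -0.11 for SNRP, -0.06 for PRPF and 0.26 for SF3 and U2AF genes, so the last turned in direction. Of the 39 genes called without the covariate, 9 were still called in the same direction. Among them were HNRNPDL, HNRNPU, PRPF39, PRPF4, SF3B6, SRSF10, SRSF6 and SRSF7. SNRPF, lower without the covariate, was called higher with it. The share did not overlap between the combination and the other groups, so its part and that of the treatment cannot be told apart. With total gene counts in place of TMM scaling, the median of all genes rose by 0.10, the median of the 70 genes was -0.19, and 25 genes were lower and 5 higher, where 22.9% and 33.1% of all tested genes were. Without the library highest in RN7SL1 (the signal recognition particle's RNA) in each group, 45 genes were lower and 4 higher, where 31.7% and 30.4% of all tested genes were.

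**Figure D2:**
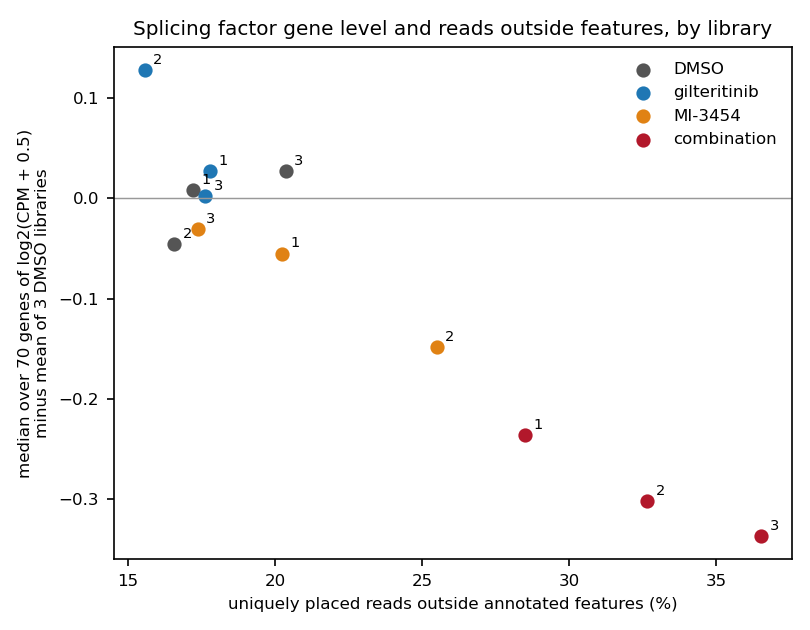
Median over the 70 genes of log2(CPM + 0.5) minus the DMSO mean (vertical axis) against the percentage of uniquely placed reads outside annotated features (horizontal axis), with 1 point per library, coloured by group and labelled with its replicate number. The 3 combination libraries lie lowest and farthest to the right, and MI-3454 replicate 2, with 25.5% of reads outside features, lies nearest to them.

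The SNRP genes were the class with the largest share of lower genes with the combination, 9 of 12, and their median log2 change was -0.43. With the share of reads outside features as a covariate, 0 of the 12 were lower and SNRPF was higher. The class median in that fit was -0.11, and 16.7% of all tested genes were lower and 15.9% higher. Without the covariate, SNRPB, SNRPD1, SNRPD2, SNRPE, SNRPF and SNRPG of the Sm ring were lower. SNRPB was at 286, 269 and 277 CPM with DMSO, 326, 301 and 308 CPM with gilteritinib, 264, 231 and 271 CPM with MI-3454 and 198, 183 and 159 CPM with the combination. Every combination library was below every library of the other groups, and the change against DMSO was -0.62 ± 0.11 (log2, SE; adjusted p = 0.000133). SNRPD1, a further Sm protein, was at 62.6, 55.0 and 60.2 CPM with DMSO and at 37.2, 39.2 and 35.0 CPM with the combination. These groups did not overlap, and the change was -0.67 ± 0.11 (adjusted p = 7.36e-05). SNRPD3, also of the ring, had a change of -0.24 ± 0.12 that did not pass (adjusted p = 0.0906).

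SNRPC, which helps the U1 snRNP to hold the 5′ splice site, was at 57.9, 73.1 and 51.2 CPM with DMSO and at 43.6, 41.9 and 34.5 CPM with the combination. The groups did not overlap, and the change was -0.60 ± 0.14 (adjusted p = 0.00145). SNRPA, another U1 protein, changed by -0.35 ± 0.11 (adjusted p = 0.0157) and SNRPA1, a U2 protein, by -0.43 ± 0.12 (adjusted p = 0.00593). With the share of reads outside features as a covariate, the changes of SNRPC and SNRPA took the opposite sign and neither was called. SNRPB2, the partner of SNRPA1 in U2, had -0.26 ± 0.12 (adjusted p = 0.0659). SNRPN, a relative of SNRPB, was low in every group, at 5.03 to 6.18 CPM with DMSO and 5.93 to 6.54 CPM with the combination, and was not called. Its exons overlap those of SNURF over 33.6% of their length, so its counts are uncertain.

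The promoters of the SNRP and SF3 genes often held the same short motif. Windows of 250 bases before the first-listed transcript start of each gene came from RefSeq (GRCh38.p14) and were found for 66 of the 76 genes. Of these, 57 lie wholly outside the RefSeq gene, and 9 lie in part or whole inside it, where the gene begins further upstream. The motif CCGGAAG, a core that ETS family factors can bind, was searched on both strands, where it reads CTTCCGG on the other. It was in 21 of the 66 windows (31.8%), against 11.8% of 15842 protein-coding windows and 8.82% of all 27305. Among windows wholly outside the gene, a restriction chosen after the data were seen, it was in 18 of 57 (31.6%), against 12.1% of 13282 protein-coding windows. By family it was in 7 of 11 SNRP genes, 6 of 8 SF3 genes, 3 of 24 HNRNP genes, 2 of 11 SRSF genes, 2 of 9 PRPF genes and 1 of 3 U2AF genes. The palindrome CACGTG (E-box) was in 7 of the 66 (10.6%), against 7.84% of protein-coding windows. The windows below are those of a U2, a U1 and a Sm protein gene that were all lower with the combination, and each lies wholly before the RefSeq gene, although the GENCODE 29 gene models reach into them. They are written 5′ to 3′ on the strand of the gene, with matches to CCGGAAG or CTTCCGG in capitals. SF3B6 (minus strand, chr2:24076327-24076576) holds 3 matches, SNRPC (plus strand, chr6:34757255-34757504) holds 2 that overlap on opposite strands, and SNRPB (minus strand, chr20:2470790-2471039) holds 1.
SF3B6: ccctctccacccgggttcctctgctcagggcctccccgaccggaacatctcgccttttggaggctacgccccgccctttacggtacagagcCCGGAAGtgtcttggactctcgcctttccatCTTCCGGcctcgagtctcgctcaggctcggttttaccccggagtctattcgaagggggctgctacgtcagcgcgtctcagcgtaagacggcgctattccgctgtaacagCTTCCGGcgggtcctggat
SNRPC: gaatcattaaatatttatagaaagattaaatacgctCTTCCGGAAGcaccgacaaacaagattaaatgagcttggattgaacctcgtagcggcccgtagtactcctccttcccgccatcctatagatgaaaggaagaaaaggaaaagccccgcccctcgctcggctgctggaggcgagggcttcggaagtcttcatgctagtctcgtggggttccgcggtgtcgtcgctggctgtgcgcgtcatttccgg
SNRPB: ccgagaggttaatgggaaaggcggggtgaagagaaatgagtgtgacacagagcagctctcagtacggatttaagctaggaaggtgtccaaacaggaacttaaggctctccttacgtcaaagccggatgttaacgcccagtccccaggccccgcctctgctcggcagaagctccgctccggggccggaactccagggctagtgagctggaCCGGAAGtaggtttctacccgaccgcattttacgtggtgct
A match is a description of the letters and not a site at which binding was measured. Of the tested genes with a window, the 21 with the motif had a median log2 change of -0.34 with the combination and 11 of them were lower. The 40 without it had a median of -0.24 and 19 were lower.

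Among the genes of branch point recognition, 5 of 12 were lower with the combination and 2 were higher, with a median log2 change of -0.25. With the share of reads outside features as a covariate, SF3B6 was the single gene of this class called, and the class median was 0.26. SF3B6, the SF3B subunit that contacts the branch point adenosine, fell furthest. Its level was 47.6, 45.3 and 48.7 CPM with DMSO, 40.7, 38.3 and 38.2 CPM with gilteritinib, 44.5, 39.7 and 40.3 CPM with MI-3454 and 30, 29.2 and 26.1 CPM with the combination. All combination libraries were below all others, and the change against DMSO was -0.72 ± 0.11 (adjusted p = 4.52e-05). The other lower genes were SF3B5 (-0.51), SF3A2 (-0.46), SF3A3 (-0.42) and SF3B4 (-0.34), all subunits of the U2-associated SF3A and SF3B complexes. SF3B1, the scaffold of SF3B, was not called: its level was 445, 368 and 451 CPM with DMSO and 381, 416 and 407 CPM with the combination, and the change was -0.07 ± 0.11 (adjusted p = 0.607). U2AF2, which binds the polypyrimidine tract, had -0.25 ± 0.12 (adjusted p = 0.0755).

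Each of the 4 genes that were higher with the combination shares sequence or exon bases with another gene, so their counts are uncertain. U2AF1, which reads the AG at the 3′ splice site, was at 5.64, 6.36 and 7.45 CPM with DMSO and at 9.13, 10.1 and 14.9 CPM with the combination. The groups did not overlap, and the change was 0.79 ± 0.21 (adjusted p = 0.00371). Of all 60-base stretches of its exons, 93.3% also occur in ENSG00000275895, and the longest open reading frame of each, 723 bases, differed at 0 bases. Reads that match both can be placed at either and are left out by counters that take uniquely placed reads only. U2AF1 had 885 counts in the 12 libraries, its copy had 18, and U2AF2 had 39697. The first 60 bases of the reading frame, shown in lower case to let the copies be compared, are as follows.
U2AF1: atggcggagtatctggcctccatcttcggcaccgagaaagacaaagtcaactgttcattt
ENSG00000275895: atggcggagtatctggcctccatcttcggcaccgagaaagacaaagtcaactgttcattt
U2AF1L4 (0.94 ± 0.35, adjusted p = 0.0291) had 260 counts in all, its groups overlapped, and 30.3% of its exon bases lie in another gene. PRPF40B (0.53 ± 0.21, adjusted p = 0.0399) shares 48.7% of its exon bases with FMNL3 on the other strand, and HNRNPUL2 (0.31 ± 0.13, adjusted p = 0.0470) shares 44.1% with the readthrough gene HNRNPUL2-BSCL2. The number of higher genes, 4, was 1 without DMSO replicate 1, combination replicate 1 or combination replicate 3, and 2 without DMSO replicate 3 or combination replicate 2. With the share of reads outside features as a covariate, U2AF1 was not called and its change was -0.13.

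Of the SR protein genes, 6 of 11 were lower with the combination, with a median log2 change of -0.29. SRSF6, a regulator of exon inclusion, was at 206, 165 and 209 CPM with DMSO, 155, 144 and 160 CPM with gilteritinib, 181, 189 and 139 CPM with MI-3454 and 117, 130 and 134 CPM with the combination. The combination libraries were below all others, and the change against DMSO was -0.61 ± 0.12 (adjusted p = 0.000293). SRSF2, which binds exonic enhancers, was at 229, 263 and 244 CPM with DMSO and at 176, 166 and 168 CPM with the combination, with no overlap and a change of -0.53 ± 0.10 (adjusted p = 0.000365). Of its exon bases, 36.7% lie in other genes, with the most in MFSD11.

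SRSF10 (-0.50), SRSF7 (-0.45), SRSF3 (-0.41) and SRSF9 (-0.29) were the other lower SR genes. SRSF1, the most studied member of the family, was not called: it ranged from 47.0 to 84.6 CPM with DMSO and from 54.0 to 65.9 CPM with the combination, and 60.7% of its exon bases lie in another gene. SRSF4, SRSF5, SRSF8 and SRSF11 had changes from -0.17 to 0.13 and were not called. With the share of reads outside features as a covariate, 5 of the 11 SR genes were lower, namely SRSF1 (-1.21), SRSF6 (-1.19), SRSF10 (-1.0), SRSF11 (-0.77) and SRSF7 (-0.52). In the same fit, SNRPF was the single SNRP gene called, and it was higher.

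Of the hnRNP genes, 10 of 22 were lower with the combination and 1 was higher, with a median log2 change of -0.27. HNRNPAB, which binds RNA and DNA in the nucleus and cytoplasm, was at 231, 229 and 241 CPM with DMSO, 240, 278 and 249 CPM with gilteritinib, 203, 194 and 223 CPM with MI-3454 and 161, 144 and 145 CPM with the combination. The combination libraries were below every other library, and the change against DMSO was -0.64 ± 0.10 (adjusted p = 5.33e-05). HNRNPF, which binds G-rich tracts, was at 418, 416 and 430 CPM with DMSO and 308, 280 and 267 CPM with the combination, without overlap (-0.56 ± 0.10, adjusted p = 0.000221). HNRNPU, a nuclear scaffold protein, was at 1350, 1330 and 1460 CPM with DMSO and 939, 943 and 958 CPM with the combination, again without overlap (-0.54 ± 0.11, adjusted p = 0.000341).

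HNRNPA3 (-0.50), HNRNPA0 (-0.46), HNRNPK (-0.40), HNRNPC (-0.36), HNRNPM (-0.34), HNRNPDL (-0.30) and HNRNPA1 (-0.30) were the other lower hnRNP genes. HNRNPA1 and HNRNPA3 share 21.7% and 15.9% of their 60-base stretches with 41 and 11 other genes, so part of their reads may not have been counted. HNRNPA2B1, the partner of HNRNPA1 in the core hnRNP particle, was not called (-0.15 ± 0.10, adjusted p = 0.214).

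Of the PRPF genes, 5 of 13 were lower with the combination and 1 was higher, and their median log2 change was -0.09. PRPF19, the ubiquitin ligase at the core of the PRP19 complex, was lowest of all 70 genes in log2 change. Its level was 188, 225 and 201 CPM with DMSO, 190, 213 and 186 CPM with gilteritinib, 168, 149 and 193 CPM with MI-3454 and 130, 115 and 112 CPM with the combination. The combination libraries were below all others, and the change against DMSO was -0.79 ± 0.11 (adjusted p = 1.32e-05). PRPF4 and PRPF31, both of the tri-snRNP, changed by -0.70 ± 0.11 (adjusted p = 3.17e-05) and -0.48 ± 0.11 (adjusted p = 0.00183). PRPF39, a relative of a yeast U1 protein, changed by -0.43 with overlapping groups. PRPF8, the core of the spliceosome's active site, was at 737, 827 and 758 CPM with DMSO and at 843, 805 and 737 CPM with the combination, and was not called (0.04 ± 0.11, adjusted p = 0.775).

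**Figure D3:**
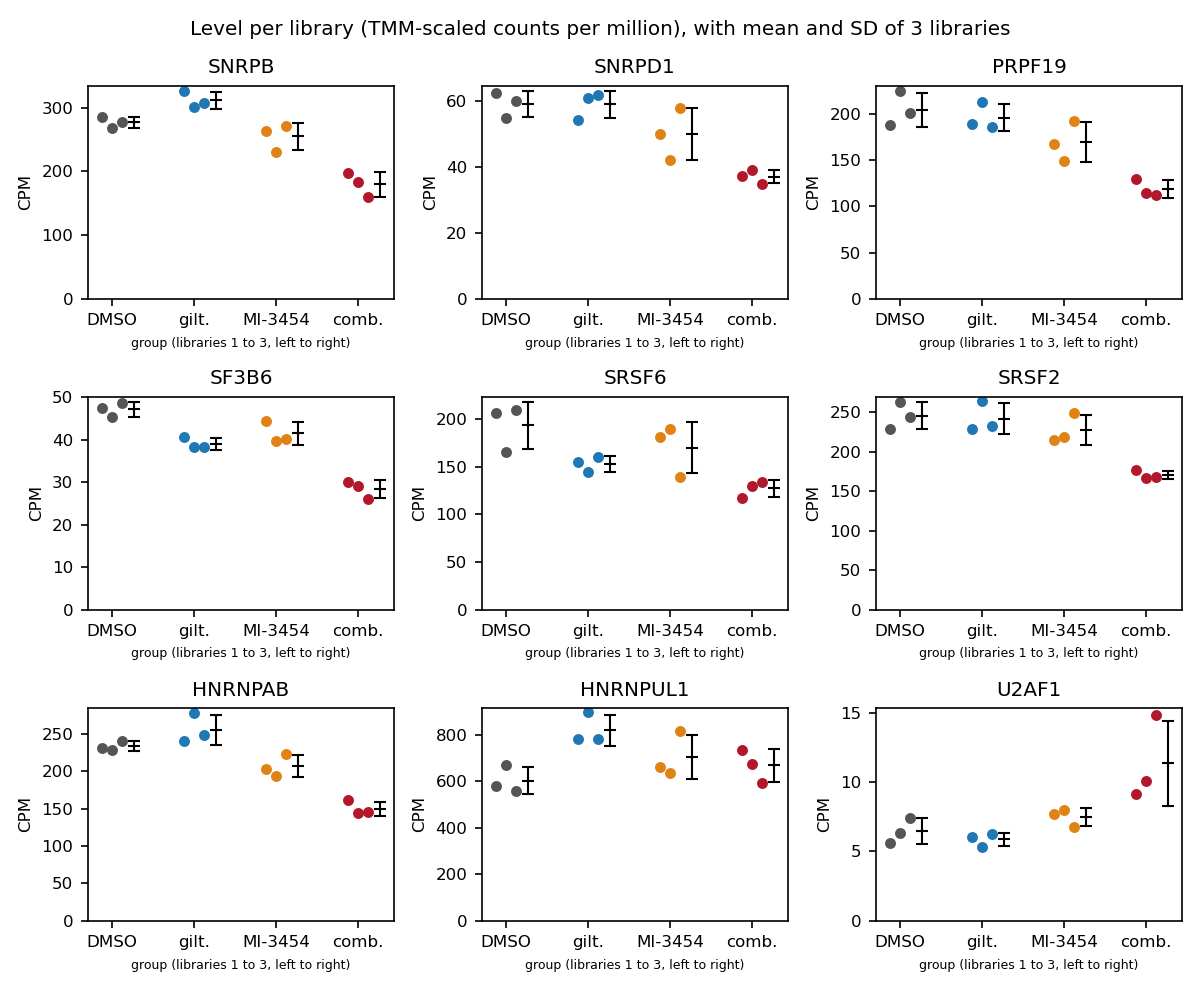
Level of 9 splicing factor genes in CPM (vertical axes, from 0) in the 4 groups (horizontal axes); coloured points are libraries 1 to 3 from left to right, and the black bar is the mean ± SD of 3 libraries. SNRPB, SNRPD1, PRPF19, SF3B6, SRSF6, SRSF2 and HNRNPAB are lowest in the combination, HNRNPUL1 is higher with gilteritinib, and U2AF1 is highest in the combination.

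Shorter genes among the 70 tended to fall more. Spearman's rho between exon length and log2 change with the combination was 0.40 over the 70 genes, and -0.02 over 13873 tested genes with a length, a description across genes that share libraries and are not independent replicates. Of the 35 lower genes, 24 were lower in each of the 6 fits that left out 1 library.

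Gilteritinib alone changed few splicing factor genes when the libraries were taken as unpaired. The test called 1 gene higher and 1 lower, where 6.92% and 8.18% of all tested genes were called, and the median log2 change was 0.05. HNRNPUL1, an hnRNP U-like protein, was at 579, 670 and 559 CPM with DMSO and at 780, 897 and 781 CPM with gilteritinib. The groups did not overlap, and the change was 0.44 ± 0.12 (adjusted p = 0.0228). PRPF39 was at 24.2, 18.4 and 26.8 CPM with DMSO and at 15.6, 12 and 15.5 CPM with gilteritinib, again without overlap (-0.68 ± 0.16, adjusted p = 0.0162). Neither gene was called without DMSO replicate 1, DMSO replicate 3 or gilteritinib replicate 2, and HNRNPUL1 was not called without gilteritinib replicate 1 or 3. Without DMSO replicate 2, 10 genes were higher and 8 lower, where 13.8% and 14.7% of all tested genes were.

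Same-numbered gilteritinib and DMSO libraries deviated together from their group means, so the fit with the replicate number as a block is given beside this. The pairing is a hint from the data, since gilteritinib replicate 1 correlated more with DMSO replicate 3 (r = 0.262 across genes) than with DMSO replicate 1 (r = 0.18). The blocked fit called 15 of the 70 genes higher and 9 lower, where 17.7% and 17.6% of all tested genes were called. Of the 12 SF3 and U2AF genes, 7 were higher (SF3A1, SF3A2, SF3B2, SF3B3, SF3B4, SF3B5 and U2AF2) and SF3B6 was lower. SF3B4 was at 47.5, 61.0 and 45.9 CPM with DMSO and 62.0, 89.1 and 56.3 CPM with gilteritinib, so that the groups overlapped but each gilteritinib library was above the DMSO library of its number (0.41 ± 0.08 with the block, adjusted p = 3.03e-05).

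Of the SR genes, 5 of 11 were lower in the blocked fit: SRSF6 (-0.33), SRSF1 (-0.33), SRSF7 (-0.28), SRSF10 (-0.25) and SRSF11 (-0.19). The hnRNP genes that were higher were HNRNPUL1 (0.44), HNRNPM (0.35), HNRNPA2B1 (0.33), HNRNPL (0.29) and HNRNPD (0.28), and HNRNPLL was lower (-0.20). SNRPC (0.33), SNRPF (0.31) and PRPF8 (0.30) were higher, and PRPF39 (-0.68) and PRPF3 (-0.24) were lower. RN7SL1 took 4.27% of counts in DMSO replicate 2 and 2.88% in gilteritinib replicate 2, more than in the other libraries of each group. Without the library highest in RN7SL1 in each group, 12 genes were higher and 9 lower, where 15.3% and 15.2% of all tested genes were.

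**Figure D4:**
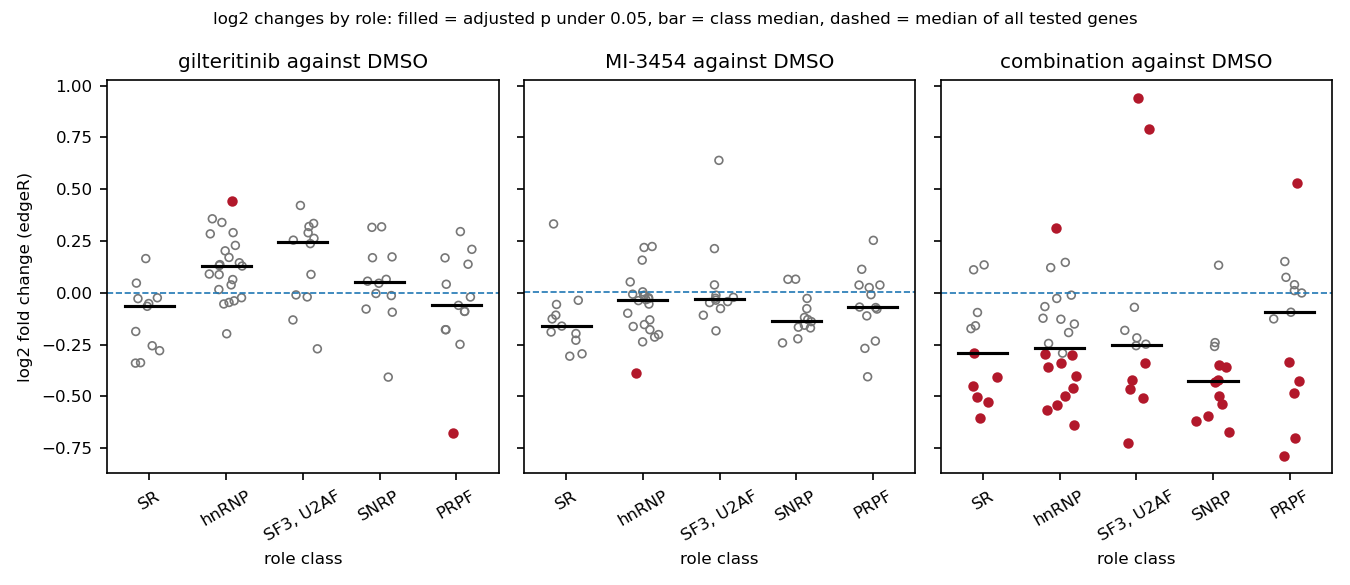
The log2 fold change of each of the 70 genes (vertical axis) by role class (horizontal axis) with gilteritinib, MI-3454 and the combination against DMSO, in fits without a replicate block; filled points have an adjusted p under 0.05, bars are class medians and the dashed line is the median of all tested genes. With the combination the class medians lie between -0.43 (SNRP) and -0.09 (PRPF), while single filled points stand out with gilteritinib (HNRNPUL1 and PRPF39) and with MI-3454 (HNRNPU).

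A single splicing factor gene was lower with MI-3454 alone. The test called 0 genes higher and 1 lower, where 10.1% and 8.95% of all tested genes were called. At an unadjusted p under 0.05 there were 5 genes in either direction, and DESeq2 called 0 higher and 1 lower. The median log2 change was -0.07. HNRNPU was at 1350, 1330 and 1460 CPM with DMSO and at 1060, 1040 and 1080 CPM with MI-3454. The groups did not overlap, and the change was -0.39 ± 0.11 (adjusted p = 0.0288). Its call was lost without DMSO replicate 1 or 3 or MI-3454 replicate 1 or 2, and 3 genes were lower without DMSO replicate 2. SNRPB (-0.12), SRSF2 (-0.11), PRPF19 (-0.27), SF3B1 (-0.03) and U2AF1 (0.21) were not called. Without the library highest in RN7SL1 in each group, 11 genes were lower, where 14.5% of all tested genes were.

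Set against each single agent, the combination was lower in more splicing factor genes than it was higher. These comparisons share the combination libraries with each other and with the comparison against DMSO. Against MI-3454, 14 genes were lower and 2 were higher, where 15.1% and 14.1% of all tested genes were called, and the median log2 change was -0.19. HNRNPF (-0.54 ± 0.09, adjusted p = 0.00153), SF3B6 (-0.53 ± 0.11, adjusted p = 0.00364), PRPF19 (-0.51 ± 0.11, adjusted p = 0.00591) and SNRPB (-0.49 ± 0.11, adjusted p = 0.00559) fell most among the called genes, and U2AF1 had 0.58 without a call. HNRNPLL (0.37) and SRSF4 (0.32) were higher. The count of lower genes was 9 without MI-3454 replicate 1, 6 without combination replicate 2 and 8 without combination replicate 3. The count of higher genes was 0 with any 1 of these 3 libraries left out and 1 without MI-3454 replicate 2. With total gene counts as the scaling, 8 were lower and 3 higher. Of all genes called, 48.4% were higher with TMM scaling and 63.2% with total counts.

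Against gilteritinib, 47 of the 70 genes were lower with the combination and 6 were higher, where 30.3% and 30.1% of all tested genes were called, and the median log2 change was -0.34. The lower genes included 10 of the 12 SNRP genes, 16 of the 22 hnRNP genes and 9 of the 12 SF3 and U2AF genes. SNRPC was at 73.6, 83.7 and 70.3 CPM with gilteritinib and at 43.6, 41.9 and 34.5 CPM with the combination, a change of -0.90 ± 0.10 without overlap (adjusted p = 3.76e-06). SF3B5, a small SF3B subunit, was at 103, 137 and 104 CPM with gilteritinib and at 73.7, 62.1 and 57.0 CPM with the combination (-0.82 ± 0.12, adjusted p = 5.53e-05). The genes that were higher were U2AF1L4, U2AF1, PRPF40B, SNRPN, HNRNPLL and PRPF3. With total gene counts as the scaling, 34 genes were lower and 10 higher. Of all genes called, 49.9% were higher with TMM scaling and 61.5% with total counts.

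The interaction term asks how far the effect of gilteritinib in the presence of MI-3454 differs from its effect without it. It was negative for 55 of the 70 genes and positive for 15, and the test called 12 below 0 and 1 above, where 8.74% and 6.55% of all tested genes were called, with a median of -0.29 against -0.02 over all tested genes. The 12 comprised 5 of the 12 SF3 and U2AF genes, 5 of the 22 hnRNP genes and 2 of the 12 SNRP genes, and no SR or PRPF gene was called (3 of 11 and 5 of 13 at an unadjusted p under 0.05). DESeq2 called 13 of the 70 below 0 and 2 above. SF3B5 had a difference of 0.32 with gilteritinib against DMSO and of -0.45 with the combination against MI-3454, neither of which passed without a block (the first passed in the blocked fit), and its interaction was -0.78 ± 0.24 (adjusted p = 0.0379), a call that was lost with the replicate block. SNRPB had -0.67 ± 0.14 (adjusted p = 0.00447), HNRNPM, a splicing regulator, -0.69 ± 0.16 (adjusted p = 0.0109) and HNRNPLL, which represses exons in lymphocytes, 0.56 ± 0.14 (adjusted p = 0.0172). With the share of reads outside features as a covariate, 0 genes were called in either direction. With total gene counts as the scaling, 6 were below 0 and 3 above, and of all genes called, 58.1% were above 0 compared with 42.8% under TMM scaling. The count below 0 was 4 without DMSO replicate 1, combination replicate 2 or combination replicate 3, 5 without gilteritinib replicate 1 or 2, 6 without DMSO replicate 3 or MI-3454 replicate 1, and 7 without MI-3454 replicate 3 or gilteritinib replicate 3.

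Genes that work with these factors were taken from 9 further lists with 149 genes, all tested. With the combination, 54 (36.2%) were lower and 19 (12.8%) were higher, where 28.4% and 29.2% of all tested genes were. The higher count was 10 without DMSO replicate 1 or combination replicate 2 and 9 without combination replicate 3. With the share of reads outside features as a covariate, 30 were lower and 8 higher, where 16.7% and 15.9% of all tested genes were.

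The list for snRNP assembly, the pathway that loads Sm proteins onto small nuclear RNAs, had 12 of 17 genes lower with the combination (median -0.43). Among all tested genes, 28.4% were lower. The list had 7 without DMSO replicate 3, and 6 with the covariate or with total gene counts as the scaling. GEMIN5, which recognises the small nuclear RNAs, averaged 61.2 CPM with DMSO, 40.8 with gilteritinib, 39.8 with MI-3454 and 22 with the combination. Its changes against DMSO were -0.58 (adjusted p = 0.00376), -0.62 (adjusted p = 0.00295) and -1.47 (adjusted p = 2.22e-08). PRMT5, which methylates Sm proteins, changed by -1.05 (adjusted p = 9.74e-07) and GEMIN4, of the SMN complex, by -0.94 (adjusted p = 6.8e-06) with the combination.

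Of 10 partners of the U2 snRNP, 6 were lower with the combination, and 2 with the covariate, where 28.4% and 16.7% of all tested genes were. RBM17, which regulates 3′ splice site choice, averaged 117 CPM with DMSO, 53.8 with gilteritinib, 52.1 with MI-3454 and 48.0 with the combination. It was lower in all 3 comparisons with the shared DMSO libraries (-1.12, -1.17 and -1.29, with adjusted p = 1.91e-05, 1.08e-05 and 1.7e-08). Of 22 PRP19 complex and catalytic step genes, 9 (40.9%) were lower, led by BCAS2 (-0.92), PLRG1 (-0.82) and PPIL1 (-0.81). That count was 14 without DMSO replicate 2 and 4 with the covariate. Of 22 further proteins of the U1, U5 and tri-snRNP particles, 6 (27.3%) were lower, near the 28.4% of all tested genes, and 2 with the covariate. The 6 were led by SNU13 (-0.76), LSM5 (-0.68) and LSM4 (-0.60). LUC7L of that list was higher (0.52).

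Some lists held genes that were higher. Of 10 minor spliceosome genes, 4 (40.0%) were higher with the combination, where 29.2% of all tested genes were, and 2 with the covariate. Without the covariate, the 4 were CENATAC (1.36), RNPC3 (1.13), ARMC7 (0.74) and SNRNP35 (0.43). RNPC3, which binds the minor-class U11 and U12 particles, averaged 20.4 CPM with DMSO, 16.3 with gilteritinib, 31.4 with MI-3454 and 44.7 with the combination. Of 17 SR protein kinases and SR-related genes, 7 (41.2%) were higher and 4 (23.5%) lower, where 29.2% and 28.4% of all tested genes were. The kinases CLK4 (0.75) and CLK1 (0.43) were higher and RNPS1 (-0.59), which joins the exon junction complex, was lower. The 7 became 2 without DMSO replicate 1, combination replicate 2 or combination replicate 3, and 1 with the covariate. The 4 became 2 without combination replicate 2 or with total gene counts.

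Of 26 other regulators of splice site choice, 10 (38.5%) were lower and 4 (15.4%) higher, where 28.4% and 29.2% of all tested genes were. MBNL3 was at 0.94, RBFOX2 at -0.90 and SYNCRIP at -0.78. The 10 became 6 without combination replicate 2 or 3 or with total gene counts, and the 4 became 2 without combination replicate 3 and 1 with the covariate. Of 10 spliceosomal helicases, 3 were lower (DHX15 at -0.48), a share near the 28.4% of all tested genes. Of 15 genes of the exon junction complex and nonsense-mediated decay, 4 (26.7%) were lower, also near 28.4%, and SMG1 was higher (0.49). With the covariate the number lower was 0.

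With gilteritinib alone, 7 of the 149 genes were higher and 6 lower, where 6.92% and 8.18% of all tested genes were. The counts were 25 and 22 in the blocked fit, where 17.7% and 17.6% of all tested genes were called. Without a block, both counts depended on single libraries: they were 14 and 21 without DMSO replicate 2, where 13.8% and 14.7% of all tested genes were. The higher count was 0 without DMSO replicate 1, DMSO replicate 3 or gilteritinib replicate 2, 3 without gilteritinib replicate 1 and 2 without gilteritinib replicate 3. The lower count was 2 without DMSO replicate 1 or 3 and 3 without gilteritinib replicate 3. With MI-3454 alone, 3 were higher and 4 lower, where 10.1% and 8.95% of all tested genes were. The 3 became 0 without DMSO replicate 1 and 1 without MI-3454 replicate 1. The 4 became 2 without DMSO replicate 1 or 3 or MI-3454 replicate 1 or 2, and 9 without MI-3454 replicate 3.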

How the data were processed

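RNA from 12 MOLM-13 libraries (4 groups of 3) was depleted of ribosomal RNA before TruSeq library preparation, per the labels' protocols. The authors deposited raw read counts for 60668 genes in each library, followed by HTSeq's 5 summary lines. Tools listed in the submitters' processing notes are STAR 2.7.1a, cutadapt 2.1, DESeq2 and HTSeq 0.11.2, with the build GRCh38. Neither annotation release nor strand setting is given in the sources used here, so reads of overlapping and antisense genes may not be told apart. Groups follow the sample titles. In replicates 2 and 3 of the groups with MI-3454 another label gives the compound with a different trailing number.

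Gene symbols matched 60340 genes, and biotypes, coordinates and exon lengths came from GENCODE 29, which matched 58561. Counts were fitted with edgeR 4.0.16 and limma 3.58.1 in R 4.3.3. Genes passed filterByExpr over the 12 libraries. Each pair of groups was fitted on its own 6 libraries with TMM scaling and the quasi-likelihood test, without a replicate block, and the interaction on all 12. Benjamini-Hochberg adjustment ran over all 13972 tested genes, with a threshold of 0.05. CPM are TMM-scaled over the 12 libraries, and a pseudocount of 0.5 CPM was added for the heat map and the medians per library. The share outside features is the no-feature count over gene, no-feature and ambiguous counts.

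The titles give replicate numbers 1 to 3 in every group. Deviations from the group means of same-numbered gilteritinib and DMSO libraries correlated at r = 0.18, 0.455 and 0.144 across genes, so these numbers were taken to pair the libraries, although gilteritinib replicate 1 correlated more with DMSO replicate 3 (r = 0.262). In the other comparisons, at least 1 pair was below 0. Alternatives were DESeq2 1.42.0, other scalings, no low-count filter, all 12 libraries together, the share outside features as a covariate, the replicate block, and leaving out libraries, among them the library highest in RN7SL1 of each group. The fits were tested on simulated counts.

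The genes, lists, named-gene rule and alternatives were chosen with earlier results of these data known. The rule names 14 fixed genes and, per comparison and class, up to 3 called genes with the largest rise and 3 with the largest fall. Other called members are listed, except that 1 gene is not reported here by name or in the heat map, though it is in the counts and medians, and up to 3 called genes come from each further list. SNRNP35, LUC7L and the kinase CLK1 beside other list genes, and the genes listed for the blocked and covariate fits, were chosen after their values were seen.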

Additional observations from a re-analysis of the deposited data

Results flagged for a closer look

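Gilteritinib's log2 effect in the presence of MI-3454 minus its effect without it differed from 0 for 13 of the 70 splicing factor genes by the interaction term (edgeR, 3 libraries per group). For the SF3 genes it was -0.78 for SF3B5, -0.75 for SF3B4, -0.47 for SF3A3, -0.46 for SF3A1 and -0.45 for SF3B3. For the snRNP proteins it was -0.75 for SNRPC and -0.67 for SNRPB. Among the hnRNP genes it was -0.69 for HNRNPM, -0.59 for HNRNPF, -0.59 for HNRNPAB, -0.52 for HNRNPUL1 and -0.46 for HNRNPD, and 0.56 for HNRNPLL. With the share of reads outside features as a covariate, 0 of the 70 passed. Among all tested genes, the main fit called 8.74% below 0 and 6.55% above. Of the 13 calls, 7 were kept with the replicate block. Without DMSO replicate 1, combination replicate 2 or combination replicate 3, 5 were kept.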

How the results depend on the processing

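Counts of the 70 genes called higher and lower are given in this order. For gilteritinib (1 and 1), they were 15 and 9 with the replicate block, 5 and 2 with all 12 libraries together, 7 and 4 with the share outside features as a covariate, 12 and 9 without the libraries highest in RN7SL1, and 0 to 10 and 0 to 8 with 1 library left out. DESeq2 called 3 higher, and 5 were higher without a low-count filter. The shares of all tested genes were 6.92% and 8.18% in the main fit and 17.7% and 17.6% with the block. They were 8.12% and 9.23% with all 12 libraries, 11% and 12% with the covariate, and 15.3% and 15.2% without the libraries highest in RN7SL1. For MI-3454 (0 and 1), the lower count was 0 with the replicate block, 3 with all 12 libraries, 10 (and 2 higher) with the covariate, 11 without the libraries highest in RN7SL1 and 0 to 3 with 1 library left out. The share of all tested genes that were lower was 8.95% in the main fit, 5.57% with the block and 12.7% with all 12 libraries. It was 15% (and 15% higher) with the covariate and 14.5% without the libraries highest in RN7SL1. For the combination against DMSO (4 and 35), the counts were 2 and 12 with the covariate, 4 and 45 without the libraries highest in RN7SL1, and 1 to 3 and 25 to 40 with 1 library left out, and the higher count was 2 with DESeq2 or no filter. The replicate block left them at 4 and 35. The shares of all tested genes were 29.2% and 28.4% in the main fit and 15.9% and 16.7% with the covariate. They were 30.4% and 31.7% without the libraries highest in RN7SL1. Against MI-3454 (2 and 14), the counts were 0 and 6 with the covariate, 0 and 8 with the replicate block, 4 and 33 without the libraries highest in RN7SL1, and 0 to 3 and 6 to 20 with 1 library left out, and total counts gave 8 lower. The shares of all tested genes were 14.1% and 15.1% in the main fit, 5.98% and 8.13% with the covariate and 10.6% and 11.1% with the block. They were 18.3% and 20.7% without the libraries highest in RN7SL1, and total counts gave 10.3% lower. Against gilteritinib (6 and 47), the counts were 0 and 8 with the covariate and 4 to 7 and 40 to 47 with 1 library left out, and total counts gave 10 higher. The shares of all tested genes were 30.1% and 30.3% in the main fit and 8.9% and 8.15% with the covariate, and total counts gave 35.9% higher. For the interaction (1 and 12), the counts were 0 and 0 with the covariate, 1 and 6 with the replicate block, 3 and 6 with total counts, 3 and 6 with scaling on protein-coding genes, 5 and 28 without the libraries highest in RN7SL1, and 1 to 3 and 4 to 17 with 1 library left out. The shares of all tested genes were 6.55% and 8.74% in the main fit, 1.85% and 2.0% with the covariate and 5.43% and 7.15% with the block. They were 8.02% and 5.78% with total counts, 7.96% and 7.11% with scaling on protein-coding genes, and 9.2% and 15.7% without the libraries highest in RN7SL1. DESeq2, its size factors in edgeR and no filter each gave 2 higher. The cause of these shifts was not tested.

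Under the covariate, all 13 genes called with the combination against DMSO whose change (log2) took the opposite sign were SNRPF at 1.07, SF3B4 at 0.49, SNRPD2 at 0.32, SNRPA at 0.28, HNRNPA0 at 0.23, HNRNPM at 0.15, SRSF9 at 0.037, and 0.23 for HNRNPA1, 0.026 for PRPF31, 0.50 for SF3A2, 0.49 for SF3B5, 0.41 for SNRPC and -0.13 for U2AF1. Of the uncalled genes among the 14 fixed by name, U2AF2 had 0.31 and HNRNPA2B1 0.12. Of the genes that the naming rule gives, those against MI-3454 were 0.058 for HNRNPM, 0.035 for PRPF31 and 0.24 for SNRPD2. Against gilteritinib they were 0.10 for HNRNPA1, 0.023 for PRPF31, 0.24 for SF3A2, 0.13 for SF3B4, 0.25 for SF3B5, 0.16 for SNRPC, 0.87 for SNRPF, -0.06 for U2AF1 and 0.085 for U2AF2. The interaction was 0.10 for SF3B5 and 0.13 for SNRPC. The share outside features, treated minus DMSO, ranged with 1 library left out from -1.79 to 0.10 points for gilteritinib, where leaving out DMSO replicate 3 turned its sign, from 0.75 to 4.81 for MI-3454 and from 12.5 to 16.5 for the combination. As reads outside features per 100 gene counts, the combination was 28.2 higher. U2AF1L4, with 260 counts in the 12 libraries, had the fewest of the 70 genes.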
